A study of Mus musculus with 21 samples.

Results

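The genes described are the receptor and the main enzymes of the endocannabinoid system, found in the count and TPM tables by their symbols: Cnr1, Dagla, Daglb, Napepld, Mgll, Abhd6 and Faah. They are 7 of the 35266 genes in the tables, and all 7 had a row there. Endocannabinoids are lipid messengers that neurons make on demand from membrane phospholipids and that act mostly backwards across the synapse. 2-Arachidonoylglycerol (2-AG) is made by the diacylglycerol lipases Dagla and Daglb and is broken down by monoacylglycerol lipase (Mgll) and by Abhd6. Anandamide can be made by the phospholipase D Napepld and is broken down by fatty acid amide hydrolase (Faah). Both ligands act on CB1, the G-protein-coupled receptor encoded by Cnr1, which lowers transmitter release and is known for its part in appetite.

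The libraries came from 2 neuron types of the hypothalamic arcuate nucleus, AGRP neurons, which drive feeding, and POMC neurons, which restrain it. All mice were male on a C57BL/6J background and for 24 h had either free access to food (fed) or water only (food deprived, FD). AGRP neurons came from NPY-hrGFP mice of postnatal day 46 to 55 (fed, n = 5) or 47 to 55 (FD, n = 6), and POMC neurons came from Pomc-GFP mice (Pomc topazFP in the study's methods) of postnatal day 51 to 56 (fed, n = 5) or 54 to 56 (FD, n = 5). Each of the 21 libraries held 44 to 214 fluorescent neurons picked by hand from 1 mouse, so that the reporter, which in the AGRP groups follows Npy and not Agrp, decided which cells were taken, and the effects of the mouse line and of the cell type cannot be told apart. The libraries were amplified without molecular identifiers, and a bulk library cannot tell fewer cells that express a gene from less RNA per cell.

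Libraries held 9822298 to 37663979 gene counts, and 3 counts corresponded to 0.0797 to 0.305 counts per 1e6 gene counts (CPM). Agrp lay at 2053 to 19930 TPM in the AGRP libraries against 5.27 to 69.3 TPM in the POMC libraries, and Pomc lay at 7162 to 23060 TPM in the POMC libraries against 7.35 to 69.7 TPM in the AGRP libraries, as the labels state. Summed over 4 markers each, astrocyte markers reached 14.1 TPM, microglia markers 10.2 TPM, endothelial markers 5.78 TPM and oligodendrocyte markers 47.8 TPM at most in any library, with C1qa of microglia at 0 in every group and Cldn5 of endothelium at 0 in 3 of 4 groups. Markers of other arcuate neurons (Th, Kiss1, Tac2, Ghrh, Sst and Trh) summed to 442 to 2363 TPM in AGRP and to 1.48 to 221 TPM in POMC libraries, with Sst called higher in AGRP neurons of fed mice and Sst and Th in those of FD mice. Their part in the differences between cell types below was not tested. POMC fed libraries 1 and 2 stood apart from POMC fed libraries 3 to 5. Counts of paired libraries differed by a mean chi-square of 155.9 to 194.5 per gene across these 2 sets and of 73.9 to 89.6 within them, and the sets also differed in the age of the mice (postnatal day 51 against 55 or 56) and in how much of the spike-in RNA was added.

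By GENCODE M21, which uses the same GRCm38 assembly as the mm10 build of the files, all 7 genes are protein-coding. Cnr1 (ENSMUSG00000044288) lies at chr4:33924593-33948831 on the plus strand, and its 1419 coding bases sit in 1 exon. Dagla lies at chr19:10245265-10304877 (minus), Daglb at chr5:143464584-143505942 (plus) and Napepld at chr5:21662901-21701396 (minus). Mgll lies at chr6:88724412-88828360 (plus), Abhd6 at chr14:8002902-8056763 (plus) and Faah at chr4:115967145-116017926 (minus). The position of Faah deposited with the counts is shorter, as its lower end lies at 115996668. In this annotation, 24.1% of the exon bases of Daglb are shared with Rac1 and 3.29% of those of Mgll with Gm26588, both on the opposite strand. By the gene positions deposited with the counts, which are of an earlier annotation, Daglb ends before Rac1 begins and Gm26588 ends before Mgll begins, but reads were counted without strand, so the counts of Daglb and Mgll are less certain than those of the other 5 genes.

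The start regions of Cnr1 and Napepld, the only members called in a comparison below, are shown from the RefSeq table of promoters (GRCm38.p6), each with 250 bases before and 50 bases from the transcript start. Of the 7 members, 6 had an entry there, and Dagla did not. Capitals mark the E-box CACGTG. Cnr1 has 3 start regions, and the one printed is that whose start site lies closest to the start of the gene. The upstream one, not shown, holds 5 GC boxes, and the downstream one holds none of the motifs searched. The printed region is chr4:33924394-33924693 (plus strand), and that of Napepld is chr5:21701573-21701872 (minus strand).
Cnr1: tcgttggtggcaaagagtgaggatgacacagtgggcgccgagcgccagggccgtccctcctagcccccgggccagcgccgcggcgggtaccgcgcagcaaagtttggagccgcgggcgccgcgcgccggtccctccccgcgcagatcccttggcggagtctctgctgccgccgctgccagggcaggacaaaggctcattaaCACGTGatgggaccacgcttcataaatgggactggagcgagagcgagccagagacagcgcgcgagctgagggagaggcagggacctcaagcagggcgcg
Napepld: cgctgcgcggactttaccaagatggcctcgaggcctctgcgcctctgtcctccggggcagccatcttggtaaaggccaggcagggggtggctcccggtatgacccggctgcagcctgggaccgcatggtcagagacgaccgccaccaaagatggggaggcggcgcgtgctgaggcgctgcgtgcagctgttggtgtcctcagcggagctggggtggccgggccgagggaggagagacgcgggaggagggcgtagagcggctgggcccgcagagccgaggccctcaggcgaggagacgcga
The E-box begins at base 202 of the Cnr1 sequence, and on either strand it occurs in 7.15% of the 32851 promoters of the table. The GC content is 69.0% for Cnr1 and 70.3% for Napepld, against a median of 52.7% over all promoters. The cAMP response element TGACGTCA (1.79% of promoters), the forkhead element TGTTTAC (3.65%), the STAT element TTCNNNGAA (8.30%) and the GC box GGGCGG (35.7%) were searched on both strands and have no match in either printed sequence.

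Levels of different genes were compared in the deposited TPM, which are per exon length. Napepld had the highest level of the 7 genes in 19 of 21 libraries, with group means of 51.4 ± 10.9 TPM (AGRP fed, SD, n = 5), 41.4 ± 21.6 TPM (AGRP FD, n = 6), 76.4 ± 14.6 TPM (POMC fed, n = 5) and 79.0 ± 23.4 TPM (POMC FD, n = 5). Cnr1 was the highest in the remaining 2 libraries, both POMC FD. It ranked second among the 7 genes in both POMC groups (32.9 ± 11.9 TPM fed and 74.5 ± 12.2 TPM FD) and behind Napepld, Abhd6, Faah and Dagla in both AGRP groups (13.2 ± 4.13 TPM fed and 6.93 ± 5.44 TPM FD). Mgll had the lowest mean level in every group (1.92 to 6.54 TPM). Dagla lay above Daglb in 18 of 21 libraries, and Mgll lay below Abhd6 in 20 and below Faah in 19 of 21 libraries. The protein of Mgll is known as the main 2-AG hydrolase of the brain. Within groups, 71.7% to 83.2% of the genes tested had a lower mean TPM than Napepld, and 36.4% to 81.4% a lower one than Cnr1.

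**Figure D1:**
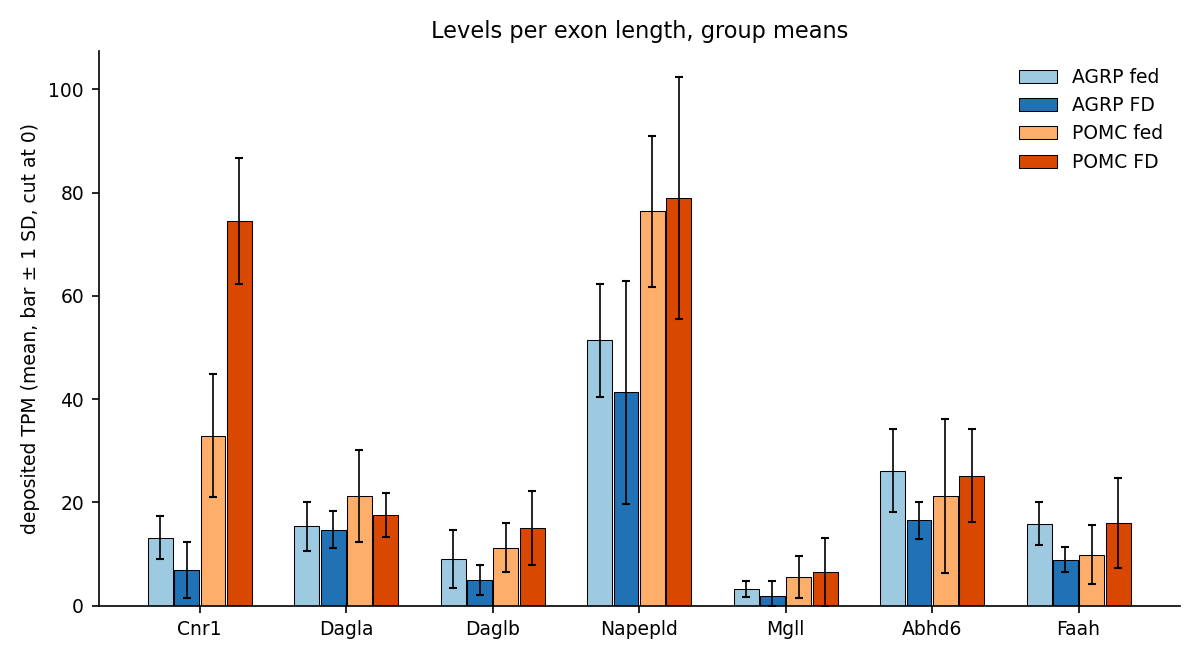
Bars give the group mean of the deposited TPM of each gene (vertical axis, TPM), lines ± 1 SD over 5 or 6 libraries, with the 4 groups in colour. Napepld is the tallest in every group, Cnr1 reaches 74.5 TPM in POMC FD neurons against 6.93 TPM in AGRP FD neurons, and Mgll is the lowest throughout.

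Cnr1 had the largest fitted difference between groups of the 7 genes. In POMC neurons of fed mice its TMM-normalized level was 48.5, 43.3, 83.6, 73.3 and 78.6 CPM in libraries 1 to 5 (65.4 ± 18.3 CPM, SD, n = 5). In POMC neurons of FD mice it was 159.9, 119, 141, 113 and 168 CPM (140.2 ± 24.3 CPM, n = 5). Every FD library lay above every fed library, and the lowest FD value (113 CPM) was well clear of the highest fed value (83.6 CPM).

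In AGRP neurons of fed mice Cnr1 lay at 22.8, 23.9, 20.9, 15.1 and 35.9 CPM (23.7 ± 7.63 CPM, n = 5). In AGRP neurons of FD mice the lowest, median and highest values were 1.92, 12.1 and 29.9 CPM (14.4 ± 10.2 CPM, n = 6). The AGRP groups overlapped, and the coefficient of variation was 70.9% in AGRP FD neurons against 17.3% in POMC FD neurons. The order of the groups was POMC FD, POMC fed, AGRP fed and AGRP FD, in CPM as in TPM, and only the last 2 neighbours overlapped.

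**Figure D2:**
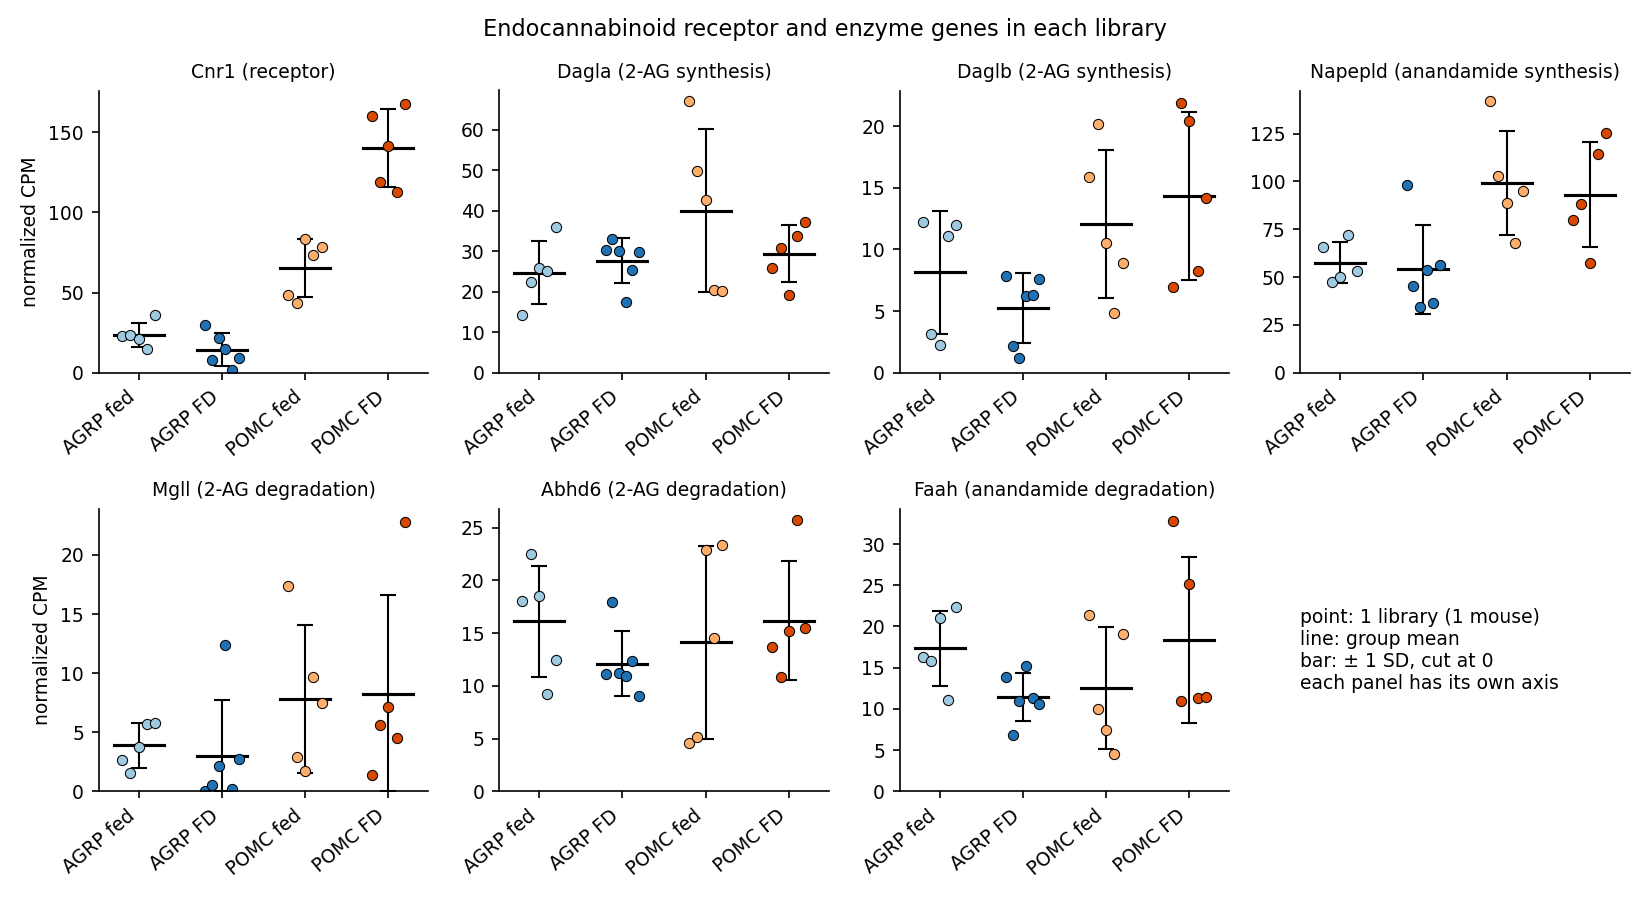
Each point is 1 library (1 mouse), the line is the group mean and the bar ± 1 SD, in TMM-normalized CPM on a separate vertical axis for each gene. For Cnr1 the 5 POMC FD libraries (113 to 168 CPM) lie above all others, while for the other 6 genes all neighbouring groups overlap.

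The comparisons below share groups, so that they are not independent of each other. The first asked which members changed with food deprivation in AGRP neurons. None of the 7 passed the test at q < 0.05, where 10.3% of the 16513 genes tested did (edgeR quasi-likelihood test with Benjamini-Hochberg adjustment, here and below). None had an unadjusted p under 0.05 (22.3% of genes did), and none by limma-voom or DESeq2 reached q < 0.05. Cnr1 had a log2 fold change of -0.72 ± 0.37 (SE, 95% interval -1.49 to 0.04, q = 0.254). Point estimates of 6 members were below 0, and their median was -0.41 against -0.02 over all genes tested. Among the synthetic enzymes, Dagla was at 0.16 ± 0.31, Daglb at -0.64 ± 0.55 and Napepld at -0.09 ± 0.25, and among the degrading enzymes Mgll was at -0.36 ± 0.91, Abhd6 at -0.41 ± 0.41 and Faah at -0.60 ± 0.41 (q = 0.433 to 0.885). No member had groups without overlap, where 7.65% of genes did. Of the markers of other cell types only Aldh1l1 of astrocytes was called here, higher in FD mice, with astrocyte sums of 1.67 to 7.51 TPM in fed and 0.468 to 14.1 TPM in FD libraries, and their part in these estimates was not tested.

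In POMC neurons again none of the 7 passed the test, where 0.375% of the genes did. Cnr1 had an unadjusted p of 0.00858, the only one under 0.05 among the members, where 12.2% of all genes were under it. Its level was 2.14-fold higher in FD mice (log2 fold change 1.10 ± 0.39, 95% interval 0.30 to 1.90, q = 0.204). The higher level held in 5 of 5 FD libraries against all fed libraries, which 1.08% of the genes tested showed in this direction. By limma-voom (1.15, q = 0.0222) and with the POMC groups fitted alone (q = 0.0291) Cnr1 was called, by DESeq2 it was not, and over the 10 alternatives q ranged from 0.0222 to 0.90. Limma-voom is the test the study used, and that estimate also passed the 2-fold change and mean of 20 CPM in the study's criteria for differentially expressed genes (DEG). With scaling by spike-in counts per cell, which moved the median of all genes to -1.11, the log2 fold change of Cnr1 was 0.15, that is 1.26 above that median. The other 6 members lay between -0.45 ± 0.32 for Dagla and 0.56 ± 0.43 for Faah (q = 0.628 to 0.989). The median of all 7 was 0.19, against -0.02 over all genes.

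The spike-in sets were not spread evenly over the POMC groups. Of the POMC libraries, spike-in RNA had been added by cell number in fed libraries 1 and 2, at 10 µl in FD libraries 4 and 5 and at 1 µl in the other 6. Within the 1 µl set Cnr1 lay at 78.5 CPM in fed (73.3 to 83.6 CPM, n = 3) and at 140.1 CPM in FD mice (119 to 159.9 CPM, n = 3), again without overlap, and its log2 fold change with the other POMC libraries left out was 0.83 (q = 0.719). Other members also followed the sets in POMC neurons. Abhd6 was at 4.58 and 5.18 CPM in POMC fed libraries 1 and 2 and at 14.5 to 23.4 CPM in libraries 3 to 5, and Dagla at 67.0 and 49.9 CPM against 20.1 to 42.7 CPM. Napepld was at 103 to 142 CPM against 67.6 to 95.0 CPM there, and Daglb at 15.9 to 20.1 CPM against 4.88 to 10.5 CPM. In FD mice Napepld was at 114 to 126 CPM in the 10 µl libraries against 57.2 to 88.4 CPM in the 1 µl libraries. Abhd6 and Dagla were also higher in these 10 µl libraries without overlap. Faah and Mgll overlapped between the sets in both POMC groups. With the set as a block the log2 fold change of Cnr1 between POMC FD and fed mice was 1.18 (q = 0.220). In both POMC groups the set and the age cannot be told apart. Among FD mice, those of libraries 4 and 5 were of postnatal day 54 and those of libraries 1 to 3 of day 55 or 56. Of the AGRP libraries, 2 fed and 3 FD had spike-in by cell number, 2 and 2 had 10 µl, and 1 and 1 had 1 µl. Fits on the 1 µl set of POMC libraries kept all AGRP libraries, so they did not match the sets between the cell types. The AGRP libraries with spike-in by cell number came from mice of postnatal day 46 or 47. The part of age in the differences between cell types was not tested.

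**Figure D3:**
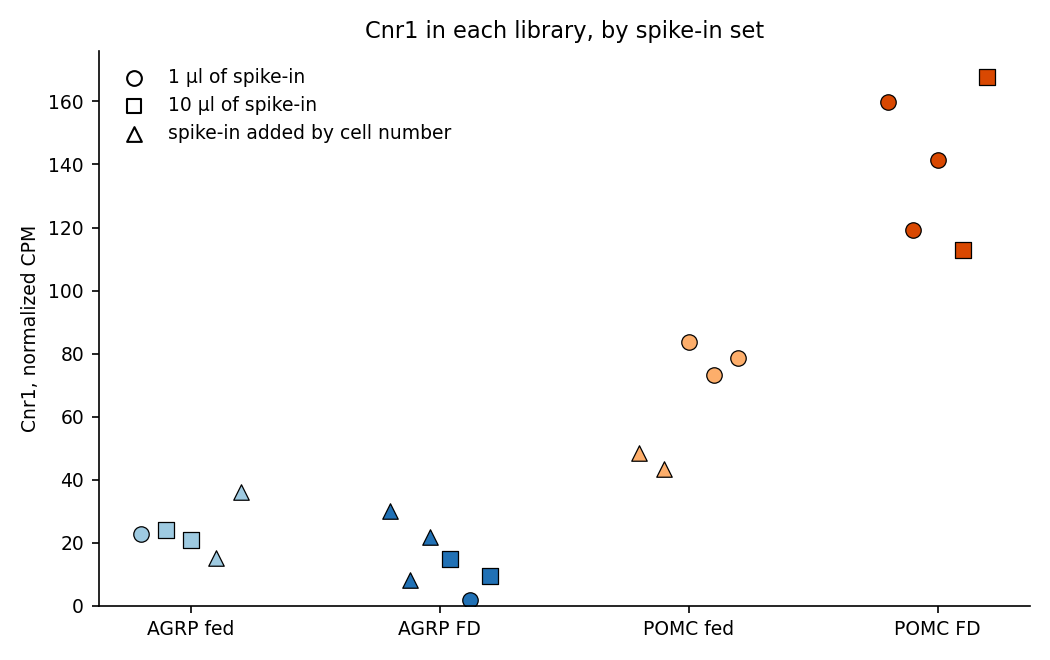
Each point is the Cnr1 level of 1 library (vertical axis, TMM-normalized CPM), by group, with the marker giving how much spike-in RNA was added. In POMC neurons the 1 µl libraries of fed (73.3 to 83.6 CPM) and FD mice (119 to 159.9 CPM) do not overlap, and the 2 fed libraries with spike-in by cell number lie lowest.

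Between the cell types in fed mice, 1 of 7 members was called, where 7.57% of genes were. Cnr1 was 2.76-fold lower in AGRP than in POMC neurons (log2 fold change -1.46 ± 0.40, 95% interval -2.27 to -0.66, q = 0.0174), and all 5 AGRP libraries lay below all 5 POMC libraries, which 4.55% of genes showed in this direction. It also met the study's criteria for a DEG (4.01% of genes), which add a 2-fold change and a mean level over 20 CPM in 1 or more of the 4 groups. These criteria were applied here and below to the edgeR fit. The call was lost with cell number as a covariate (-1.32, q = 0.0784), without AGRP fed replicate 4 (-1.34, q = 0.0576) and with scaling by spike-in counts per cell (-1.08, q = 1). The POMC libraries of the 1 µl set alone gave -1.73 (q = 0.0223).

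Napepld lay at 65.6, 47.6, 50.2, 71.8 and 53.0 CPM in the AGRP fed libraries (57.6 ± 10.5 CPM, n = 5) and at 142, 103, 88.7, 67.6 and 95.0 CPM in the POMC fed libraries (99.3 ± 27.3 CPM, n = 5). The lowest POMC value (67.6 CPM, library 4) lay within the AGRP range, and the others lay above it. The log2 fold change of -0.78 ± 0.26 missed the threshold (q = 0.0655), which it passed by DESeq2 (q = 0.0445), with the 2 groups fitted alone, with the spike-in set as a block and with cell number as a covariate. Dagla was at -0.70 ± 0.33 (q = 0.234), Daglb at -0.57 ± 0.57, Mgll at -1.01 ± 0.96, Abhd6 at 0.19 ± 0.43 and Faah at 0.47 ± 0.43 (q = 0.632 to 0.878 for the last 4).

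In FD mice, 2 of 7 members were called, Cnr1 and Napepld, where 18.6% of genes were, and all 7 point estimates were below 0 (AGRP minus POMC, median -0.78 against -0.00 over all genes). Cnr1 was 9.77-fold lower in AGRP neurons (log2 fold change -3.29 ± 0.39, 95% interval -4.09 to -2.48, q = 2.27e-07). By the study's criteria for a DEG only Cnr1 was called (8.15% of genes), as Napepld changed by less than 2-fold. The highest AGRP FD library (29.9 CPM) lay below the lowest POMC FD library (113 CPM), a separation that 5.49% of genes showed in this direction. The call held when any 1 of the 11 libraries was left out and with the spike-in set as a block (-3.48, q = 2.49e-06). It also held with only the 1 µl set of POMC libraries kept (-3.29, q = 6.02e-06), against AGRP libraries of all sets. The call was lost with scaling by spike-in counts per cell (-1.66, q = 0.172), where the median of all genes was 1.10 and Cnr1 lay 2.76 below it.

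Napepld was 1.72-fold lower in AGRP FD neurons (34.6, 49.4 and 98.0 CPM as lowest, median and highest, n = 6) than in POMC FD neurons (79.8, 88.4, 57.2, 114 and 126 CPM, n = 5), with a log2 fold change of -0.78 ± 0.25 (q = 0.0256). The groups overlapped through AGRP FD library 1, at 98.0 CPM, which lay above 3 of the 5 POMC libraries, and otherwise only the POMC library at 57.2 CPM came near the AGRP range. The call was lost when AGRP FD library 2, 3 or 5 or POMC FD library 4 or 5 was left out (q = 0.0524 to 0.0892), and the POMC libraries of the 1 µl set alone gave -0.48 (q = 0.271). With spike-in scaling its estimate was 0.54, which is 0.56 below the median of all genes. Daglb missed the threshold (-1.46 ± 0.55, q = 0.0643), at 1.21 to 7.84 CPM in AGRP FD and 6.92 to 21.9 CPM in POMC FD neurons, and DESeq2 called it (q = 0.0276), as did the fits with cell number as a covariate (q = 0.0109) and without POMC FD replicate 1 (q = 0.0456). Dagla was at -0.09 ± 0.31, Mgll at -1.45 ± 0.91, Abhd6 at -0.41 ± 0.41 and Faah at -0.68 ± 0.41 (q = 0.279 to 0.896). Without AGRP FD replicate 4, which held the highest Mgll level of its group, Mgll was at -2.89 (q = 0.0303). Over the 11 fits that left out 1 library each, Mgll ran from -2.89 to -0.62 (q = 0.0303 to 0.732).

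**Figure D4:**
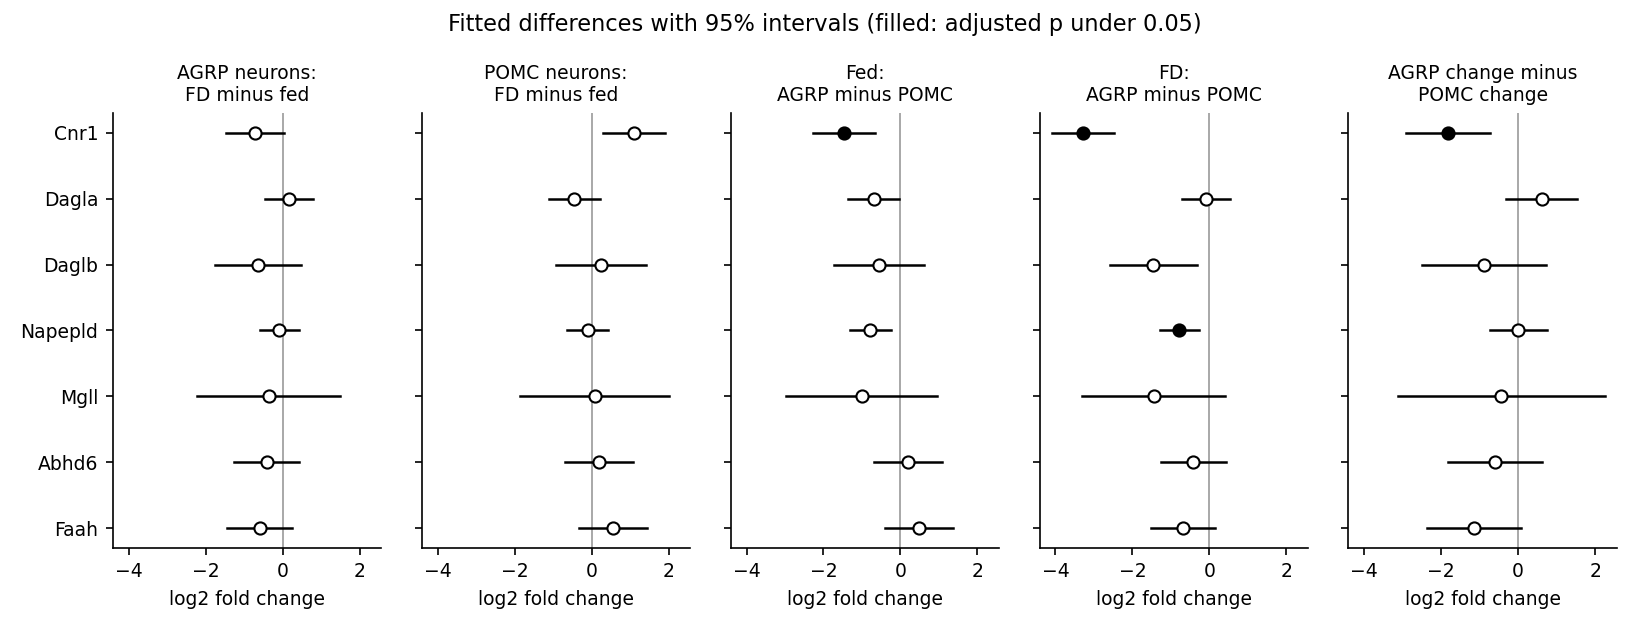
Points give the fitted log2 fold change of each gene and lines its 95% interval (horizontal axis, log2), in a panel for each comparison, with filled points at q < 0.05. Cnr1 is filled in the cell type comparisons (-1.46 fed and -3.29 FD) and in the last panel (-1.82), and Napepld only in the FD panel (-0.78).

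The last comparison asked whether the change with food deprivation differed between the cell types, by an interaction term. It was called for 1 of 7 members, where 6.71% of genes were called (2.63% in the direction of Cnr1). For Cnr1 the change in AGRP neurons less that in POMC neurons was -1.82 ± 0.54 on the log2 scale (95% interval -2.93 to -0.72, q = 0.0365), from estimates of -0.72 in AGRP and 1.10 in POMC neurons that did not themselves pass the test. The call held in 11 of the 21 fits that left out 1 library each (q = 0.00706 to 0.0758), and it was lost without AGRP fed replicates 1, 2 or 5, AGRP FD replicates 2 or 6, POMC fed replicates 1 or 2, or POMC FD replicates 1, 3 or 5. It was also lost within the 1 µl set of POMC libraries (-1.56, q = 0.206) and with scaling by spike-in counts per cell (-0.58, q = 0.819, 1.62 below the median of all genes), and it held by limma-voom, by DESeq2 and with the spike-in set as a block. Faah had the next largest estimate (-1.16 ± 0.60, q = 0.282), and Napepld was at 0.00 ± 0.36 (95% interval -0.74 to 0.74). Dagla was at 0.61 ± 0.45, Daglb at -0.89 ± 0.79, Mgll at -0.44 ± 1.31 and Abhd6 at -0.61 ± 0.60 (q = 0.494 to 0.902).

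**Figure D5:**
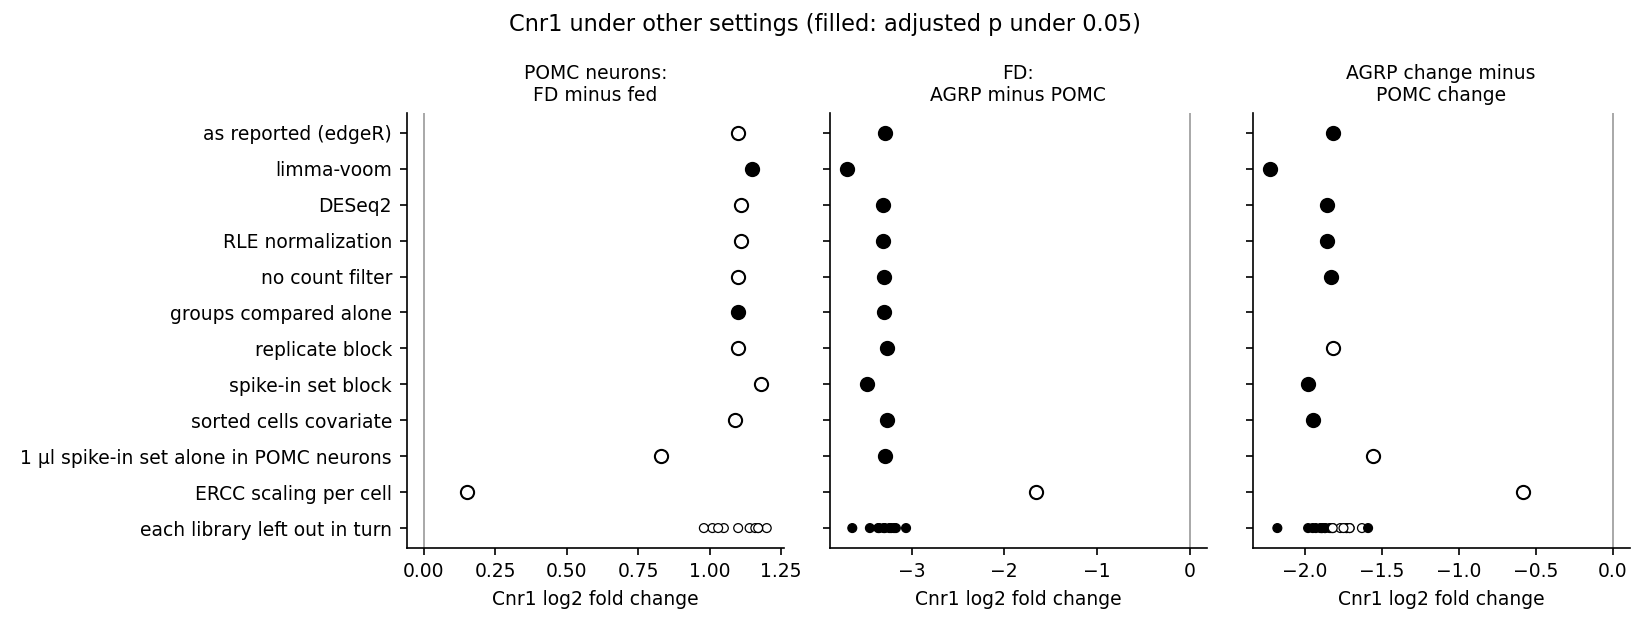
Each point is the log2 fold change of Cnr1 (horizontal axis) under 1 setting, filled at q < 0.05, with the fits that leave out 1 library each on the lowest line. The difference in FD mice stays between -3.70 and -3.06 in all settings but spike-in scaling (-1.66), whereas the calls in the outer panels change with the setting.

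Mgll had the highest coefficient of variation of the 7 genes in 3 of the 4 groups, the exception being AGRP fed neurons, where it was Daglb (61.4%). In AGRP FD neurons it had 0 counts in library 1, where 3 counts are 0.178 CPM, and 4 counts in library 5, but 409 counts in library 4 (12.4 CPM). In POMC FD neurons it ranged from 1.38 to 22.8 CPM. Its coefficient of variation was 158% and 101% in these groups, and its 95% intervals of -2.22 to 1.50 (AGRP neurons) and -1.86 to 2.02 (POMC neurons) for the log2 change with food deprivation reach beyond a 2-fold change in both directions, so that a change of that size was not detectable here. Faah lay at 6.78 to 15.2 CPM in AGRP FD against 11.1 to 22.4 CPM in AGRP fed libraries and at 10.97 to 32.8 CPM in POMC FD against 4.51 to 21.4 CPM in POMC fed libraries. All of these ranges overlapped.

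The diacylglycerol lipases and Abhd6 had overlapping groups throughout. Dagla lay at 24.7 ± 7.78 CPM in AGRP fed (14.2 to 35.9 CPM), 27.7 ± 5.52 CPM in AGRP FD (17.6 to 32.9 CPM), 40.04 ± 20.1 CPM in POMC fed (20.1 to 67.0 CPM) and 29.4 ± 7.04 CPM in POMC FD neurons (19.2 to 37.3 CPM). Daglb had 20 to 544 counts in a library and lay at 8.13 ± 4.99, 5.23 ± 2.83, 12.1 ± 5.98 and 14.3 ± 6.81 CPM in the same order. Abhd6 lay at 16.1 ± 5.28, 12.1 ± 3.08, 14.1 ± 9.14 and 16.2 ± 5.64 CPM. The order of the group means was the same in CPM and TPM for Cnr1, Daglb, Mgll and Faah, and differed for Dagla, Napepld and Abhd6.

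A wider list of 23 genes of the pathway was read in the same fits, and 17 of them passed the filter on low counts. Cnr2, the gene of the CB2 receptor of immune cells, had at most 1 count in any library, and Trpv1 had none. Gpr119, Ptpn22, Hrasls5 and Ptgs2 were also too low to be tested. In AGRP neurons 4 of the 17 fell with food deprivation and none rose (4.43% of genes fell and 5.87% rose). In POMC neurons none was called, where 0.375% of genes were, and limma-voom and DESeq2 also called none. Of the 17, 2 had an unadjusted p under 0.05 in POMC neurons, where 12.2% of genes did.

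Sgip1, whose protein binds CB1 and slows its internalization, fell in AGRP neurons from 456 ± 61.3 CPM (398 to 547 CPM, n = 5) to 221 ± 45.7 CPM (176 to 305 CPM, n = 6), a log2 fold change of -1.05 ± 0.14 (q = 5.28e-06) with no overlap. In POMC neurons it lay at 398 ± 38.9 CPM fed and 444 ± 33.6 CPM FD, and the change differed between the cell types (-1.20 ± 0.20, q = 0.000205). Naaa, the lysosomal acid amidase of N-acylethanolamines, fell in AGRP neurons from 18.1 ± 3.48 to 5.84 ± 2.08 CPM (-1.63 ± 0.31, q = 0.00056), also with no overlap, and lay at 28.5 ± 8.57 and 35.0 ± 5.82 CPM in POMC neurons (difference of changes -1.93 ± 0.44, q = 0.00637). The calls of both genes in AGRP neurons held in all 11 fits that left out 1 library, and their differences of changes in all 21 and within the 1 µl set of POMC libraries (q = 0.00427 for Sgip1 and 0.0183 for Naaa). With scaling by spike-in counts per cell these calls were lost. There the changes in AGRP neurons were -0.98 for Sgip1 and -1.34 for Naaa (both q = 1), and the differences of changes were -0.07 for Sgip1 (q = 0.983) and -0.42 for Naaa (q = 0.879), which lay 1.11 and 1.46 below the median of all genes.

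Plcb1, a phospholipase C that makes the diacylglycerol used by Dagla and Daglb, lay at 12.6 ± 8.68 CPM in AGRP fed and at 4.96 ± 3.12 CPM in AGRP FD neurons (-1.34 ± 0.42, q = 0.0390), with overlapping groups. Fabp5, a cytosolic carrier of anandamide, fell from 16.3 ± 6.55 to 7.79 ± 3.90 CPM (-1.06 ± 0.35, q = 0.0479), also with overlap. The call of Plcb1 was lost by limma-voom (q = 0.215), with the AGRP groups fitted alone (q = 0.148), with cell number as a covariate (q = 0.0556), with spike-in scaling (-1.98, q = 0.460) and without AGRP fed replicate 2 (-0.93) or 4 or AGRP FD replicate 1, 2 or 3. The call of Fabp5 was lost by limma-voom (q = 0.146), without a filter on low counts (q = 0.0671), with the AGRP groups fitted alone (q = 0.142), with cell number as a covariate (q = 0.0688), with spike-in scaling (-1.34, q = 0.997) and without AGRP fed replicate 2, 3 or 5 or AGRP FD replicate 1, 2, 3 or 5.

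Between the cell types, 1 of the 17 genes was higher in AGRP neurons of fed mice and 3 were lower (3.33% and 4.24% of genes), and in FD mice 1 was higher and 5 were lower (9.28% and 9.27%). Plcb4 was the higher one, at 140.0 ± 40.9 CPM against 57.7 ± 31.0 CPM in fed mice (1.28 ± 0.28, q = 0.00246) and at 193 ± 26.6 CPM against 75.6 ± 27.8 CPM in FD mice (1.35 ± 0.27, q = 0.000435). Its relative Plcb1 went the other way, with 49.2 ± 18.2 CPM in POMC fed and 48.8 ± 11.4 CPM in POMC FD neurons, against the AGRP levels above (-1.96 ± 0.45, q = 0.00407, and -3.29 ± 0.44, q = 1.73e-06). Fabp5 was lower in AGRP neurons of fed (-1.35 ± 0.37, q = 0.0184) and FD mice (-2.07 ± 0.35, q = 6.08e-05), the first of which was lost within the 1 µl set of POMC libraries (q = 0.108) and without AGRP fed replicate 1 or 4 or POMC fed replicate 2. In FD mice Sgip1 (-1.01 ± 0.14, q = 2.12e-06) and Naaa (-2.59 ± 0.31, q = 2.67e-07) were also lower in AGRP neurons. Under spike-in scaling their estimates were 0.27 and -1.26, which lay 0.83 and 2.36 below the median of all genes (1.10). Plcb2 was called lower in both, but in fed mice through POMC library 4 with 596 counts (31.6 CPM), the other POMC fed libraries lying at 0 to 0.925 CPM and the AGRP libraries at 0 to 0.161 CPM, and in FD mice at 0 in 5 of 6 AGRP libraries and 0.0725 to 1.86 CPM (1 to 39 counts) in POMC libraries. By limma-voom and with the spike-in set as a block neither call of Plcb2 was made, and with cell number as a covariate the one in fed mice was not. With spike-in scaling none of the 4 calls in fed mice was made (q = 0.176 to 0.851), and in FD mice those of Plcb1, Plcb2 and Plcb4 were.

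The genes whose level followed that of Cnr1 most closely over the 21 libraries, among the 8195 genes whose mean exceeded 20 CPM in 1 group or more, were Zfhx4 (Pearson r = 0.942), Rbfox1 (r = 0.931) and Gpr165 (r = 0.924), on log2(CPM + 0.5). Zfhx4, a zinc finger transcription factor, lay at 70.8 and 51.8 CPM in AGRP fed and FD neurons and at 211 and 261 CPM in POMC fed and FD neurons. Rbfox1, a splicing factor of neurons, lay at 45.7 and 21.4 CPM in AGRP and at 87.0 and 129.6 CPM in POMC neurons, fed and FD. For Napepld they were Hpcal1 (r = 0.866), Aff3 (r = 0.842) and Itga6 (r = 0.830). All points share the 4 groups and each library its depth and amplification, and the correlations are descriptions.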

How the data were processed

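RNA-Seq libraries were made from 21 pools of hand-sorted neurons (1 mouse each) with amplification and without molecular identifiers, so that floors cover counting error only. Intervals and SE of fitted differences rest on the spread between libraries. Per the labels and the study's methods, the authors filtered reads with cutadapt (1.7.1) and Bowtie2 (2.1.0), aligned them to mm10 with STAR (2.4.0i) and deposited HTSeq (0.6.1p1) counts per Gencode gene, counted without strand. The deposited TPM were made by the authors from these counts and exon lengths. Here, 92 spike-in and 5 summary entries were set aside. Reads assigned to no gene made up 25.6% to 55.3%.

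Genes with over 1 CPM in at least 3 libraries (16513 genes, all 7 members) were tested by edgeR's quasi-likelihood test (4.0.16, R 4.3.3) with TMM scaling on the deposited counts, the 4 groups in 1 fit, and Benjamini-Hochberg adjustment over all genes tested (q-value, call at 0.05). The study used limma-voom, which is an alternative here (limma 3.58.1), as is DESeq2 (1.42.0). Other alternatives were size factors by RLE, no filter, the groups of a comparison alone, the replicate number or the spike-in set as a block, cell number as a covariate, scaling by spike-in counts per cell, the study's DEG criteria (in addition, at least a log2 change of 1 in size and 20 CPM on average in 1 group) and each library left out. The fit on the 1 µl set of POMC libraries and all alternatives for the wider pathway genes were added after seeing the data. Scripts were tested on simulated data.

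The genes and lists were chosen with earlier results of these data known. Named genes were the 7 members, genes of the wider pathway list called in at least 1 comparison, and for each called member the 3 genes with the highest correlation. Replicates are separate mice. Equal replicate numbers mark different mice, and nothing in the labels pairs them.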

Additional observations from a re-analysis of the deposited data

Results flagged for a closer look

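In 6 of 52 sets of values (1 gene in 1 group of 5 or 6 libraries), 1 library lay far from the others by Dixon's criterion, which chance gives in about 1 set in 20. Mgll was at 12.4 CPM in AGRP FD library 4, with the next library at 2.75 CPM. Mgll was also at 22.8 CPM in POMC FD library 5, with the next at 7.10 CPM. Without AGRP FD library 4 the difference of Mgll between AGRP and POMC neurons of FD mice was -2.89 (q = 0.0303) in place of -1.45 by edgeR's quasi-likelihood test. Over the 11 fits that left out 1 library each, this difference ran from -2.89 to -0.62 (q = 0.0303 to 0.732). Without POMC FD library 5 the change of Mgll in POMC neurons was -0.75 (q = 0.846) in place of 0.08. The difference of changes was then 0.39 (q = 0.918) in place of -0.44. Napepld was at 98.0 CPM in AGRP FD library 1, with the next at 56.4 CPM, and without that library its difference between the cell types in FD mice was -1.04 (q = 0.00166) in place of -0.78. Plcb2 was at 31.6 CPM in POMC fed library 4, with the next at 0.925 CPM, and in AGRP FD library 4 it had 1 count (0.0304 CPM, others at 0), which is under the floor of 3 counts. Naaa was at 43.6 CPM in POMC fed library 2, with the next at 25.6 CPM.

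The change with food deprivation differed between the cell types by the interaction term for Cnr1 (-1.82 on the log2 scale, AGRP change less POMC change, q = 0.0365), for Sgip1 (-1.20, q = 0.000205) and for Naaa (-1.93, q = 0.00637). For Cnr1, 5 of 5 POMC FD libraries lay above all POMC fed libraries, and the AGRP groups overlapped. For Sgip1 and Naaa, 6 of 6 AGRP FD libraries lay below all AGRP fed libraries, and the POMC groups overlapped.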

How the results depend on the processing

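Of 484 fitted values of members and called pathway genes under 10 alternatives, 417 kept direction and side of the threshold, 34 lost and 8 gained a call and 25 changed sign. Where no other cause is stated, the cause was not tested. Limma-voom and the POMC groups fitted alone called 1 member (Cnr1) in POMC FD against fed. DESeq2, the groups fitted alone and the spike-in block called 2 members in AGRP against POMC fed, and the study criteria called 1 in FD mice. Napepld's difference of changes, 0.00 in the reported fit, was -0.02 by limma-voom, -0.04 by DESeq2 and by RLE, -0.09 with the replicate block and -0.11 with the spike-in block, and its AGRP change 0.02 with cell number as a covariate. The spike-in block also gave -0.61 for Mgll in POMC neurons and 0.04 for Abhd6 between FD groups.

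The POMC libraries of the 1 µl set, with fewer samples, called 1 member between FD groups, 0 in the difference of changes and 2 pathway genes between fed groups. They gave -0.42 for Mgll and -0.62 for Abhd6 in POMC neurons, 0.00055 for Daglb and -0.33 for Abhd6 between fed groups, 0.12 for Dagla between FD groups, and 0.05 for Mgll and 0.20 for Abhd6 in the difference of changes.

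Spike-in counts were not in proportion to the volume added, which adds uncertainty to scaling by them. The departure went by set. Libraries with spike-in by cell number received 1 to 4.28 µl but had 39097 to 127258 spike-in counts. The 1 µl libraries had 54433 to 279865 and the 10 µl libraries 1152518 to 8514459. POMC fed had no 10 µl library and POMC FD none by cell number. The part of this imbalance in the shifts of the median below was not tested. AGRP fed library 1 had 54433 at 1 µl (142 cells), and AGRP fed library 2 had 2755357 at 10 µl (102 cells). The cause was not tested. Scaling by spike-in counts per cell moved the median of all genes to -1.11 in POMC neurons, 1.10 between FD groups and 1.04 in the difference of changes. It called 0 members in either cell type comparison and in the difference of changes, and 0 pathway genes in AGRP neurons, between fed groups and in the difference of changes, but 3 between FD groups. It gave -0.96 for Daglb, -1.35 for Mgll, -0.58 for Faah and -0.69 for Abhd6 in POMC neurons. Between FD groups it gave 1.28 for Dagla, 0.33 for Faah, 0.54 for Napepld, 0.87 for Abhd6 and 0.27 for Sgip1, and 0.53 for Abhd6 in the difference of changes. Limma-voom moved the median of all genes to -0.13 in AGRP neurons and -0.10 in the difference of changes.

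Pathway genes called in AGRP FD against fed numbered 2 with the groups alone or cell number as a covariate. In TPM 4 of 7 members kept the order of the group means.

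With the replicate number as a block, the difference of changes called 0 members (Cnr1 q = 0.0626), and the calls of Fabp5 in AGRP neurons (q = 0.0665) and of Plcb2 between fed groups (q = 0.580) were lost. Deviations of equally numbered libraries correlated at -0.183 to 0.118, so the numbers did not pair them, and counts of calls over all genes with the block were 1488, 48, 1132, 2817 and 927.

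Leaving out 1 library each gave -0.35 to 0.0079 for Napepld in AGRP neurons, and in POMC neurons -0.75 to 0.60 for Mgll, -0.23 to 0.07 for Napepld and -0.04 to 0.45 for Abhd6. Between fed groups it gave 0 to 2 members called and -0.03 to 0.45 for Abhd6, and between FD groups 1 to 3 members and -0.21 to 0.02 for Dagla. For the difference of changes it gave 0 to 1 member, -1.88 to 0.39 for Mgll and -0.25 to 0.13 for Napepld, and in AGRP neurons 2 to 5 pathway genes.

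Over all genes, calls numbered 1700, 62, 1250, 3064 and 1108 in the 5 comparisons, in the order of the report. DESeq2 called 382 in the second, spike-in scaling 97, 13, 297, 1117 and 119, and the 1 µl set 27 in the second and 622 in the last. Mgll had 0 to 409 and Daglb 20 to 544 counts in a library, and whether depth limited their tests was not tested.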
